A study of Mus musculus with 6 samples.

Results

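Skeletal muscle genes were followed in bulk RNA-seq of the maxillary process of mouse embryos at E12.5. They are 36 genes taken by symbol from a list of muscle transcription factors, sarcomere proteins, acetylcholine receptor subunits, and fusion, calcium and assembly proteins, out of the 53801 genes in the count files. The rule used no measured value, although the list was chosen with earlier results of these data known, and all 36 symbols were found. Of these, 33 had enough counts for a test, and Myf6, Tnnc2 and Ckm did not.

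The study compared 3 samples of wild-type embryos (WT) with 3 samples of Wnt1cre; Rosa26Dlx2/- embryos (Dlx2OE) of the C57BL/6J background, which the strain label gives as C57BL/6, to learn which genes respond to the transcription factor Dlx2. Dlx2OE embryos carry a Dlx2-3xFlag copy in the Rosa26 locus behind a CAG promoter and a stop cassette, which Wnt1-driven Cre removes in the neural crest lineage, so the design raises Dlx2 in that lineage and not in muscle precursors. The labels give the other samples as wild-type. The RNA came from littermates, on whose number the paper and the labels disagree. The paper calls the 3 samples of a genotype independent biological replicates, but how many embryos each sample holds is not stated. The p-values thus set a genotype difference against the spread between these samples.

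Skeletal muscle of the face comes from head mesoderm, whereas the connective tissue, tendons and skeleton around it come from the neural crest. In the head, Tcf21 and Msc act in muscle progenitors, Myf5 and Myod1 commit cells to the muscle lineage, and Myog drives their differentiation into fusing, contractile cells. All of them are basic helix-loop-helix proteins, a family that binds E-boxes (CANNTG). Differentiating cells then switch on the sarcomere: thick filaments of myosin, thin filaments of actin with the calcium switch troponin, and the giant proteins titin and nebulin that set filament order.

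Promoter windows were read for the members from RefSeq (GRCm38), each running from 250 bases before the annotated transcription start to 50 bases after it. Windows were present for 29 of the 36 genes (32 windows in all), and not for Chrnd, Msc, Myf6, Mymk, Myod1, Neb and Tnnt3. The 5 windows below belong to the genes on which the values turn: Myog, the differentiation factor, Actc1, the member with the highest level per length, Mylpf and Myl4, the members with the largest differences between genotypes, and Ryr1, a member that did not follow the others. Capitals mark CANNTG, which reads the same on both strands.

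Myog (chr1:134289754-134290053, forward strand): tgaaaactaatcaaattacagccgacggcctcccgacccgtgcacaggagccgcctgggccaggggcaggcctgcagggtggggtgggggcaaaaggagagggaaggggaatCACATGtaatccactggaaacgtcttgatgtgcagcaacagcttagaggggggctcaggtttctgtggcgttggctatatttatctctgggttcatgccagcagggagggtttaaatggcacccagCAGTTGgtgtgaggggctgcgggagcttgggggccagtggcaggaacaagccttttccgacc
Actc1 (chr2:114052826-114053125, reverse strand): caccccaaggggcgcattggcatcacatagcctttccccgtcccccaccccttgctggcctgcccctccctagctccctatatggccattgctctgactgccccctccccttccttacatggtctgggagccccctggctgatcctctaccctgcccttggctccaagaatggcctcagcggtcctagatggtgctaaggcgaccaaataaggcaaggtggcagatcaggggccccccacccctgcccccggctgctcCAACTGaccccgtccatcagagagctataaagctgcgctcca
Mylpf (chr7:127211358-127211657, forward strand): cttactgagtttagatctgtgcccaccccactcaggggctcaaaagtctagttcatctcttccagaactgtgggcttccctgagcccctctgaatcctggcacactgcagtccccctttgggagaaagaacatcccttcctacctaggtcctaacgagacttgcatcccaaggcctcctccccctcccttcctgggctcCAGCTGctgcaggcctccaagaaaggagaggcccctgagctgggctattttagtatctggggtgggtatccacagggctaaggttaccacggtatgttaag
Myl4 (chr11:104550413-104550712, forward strand): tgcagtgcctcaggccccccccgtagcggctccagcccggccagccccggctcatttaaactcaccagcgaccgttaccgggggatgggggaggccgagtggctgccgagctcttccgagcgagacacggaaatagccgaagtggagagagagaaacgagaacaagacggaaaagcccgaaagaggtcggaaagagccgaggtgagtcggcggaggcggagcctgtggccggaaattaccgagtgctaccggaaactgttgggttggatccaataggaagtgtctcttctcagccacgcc
Ryr1 (chr7:29125102-29125401, reverse strand): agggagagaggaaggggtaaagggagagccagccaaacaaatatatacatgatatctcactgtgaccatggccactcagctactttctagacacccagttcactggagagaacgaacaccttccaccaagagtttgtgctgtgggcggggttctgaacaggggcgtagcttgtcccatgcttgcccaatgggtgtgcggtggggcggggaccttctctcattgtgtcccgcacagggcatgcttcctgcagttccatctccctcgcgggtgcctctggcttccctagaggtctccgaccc

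The Myog window holds 2 matches, the Actc1 and Mylpf windows 1 each, and the Myl4 and Ryr1 windows 0. The Mylpf match is CAGCTG, a form of CANNTG. Over all members, 27 of 32 windows (84.4%) held CANNTG, beside 72.3% of the 32851 RefSeq windows. CAGCTG, which is contained in CANNTG, was in 37.5% of member windows and 16.3% of all. The core homeodomain motif TAATTA, searched on both strands, was in 1 member window (3.12%) and in 5.29% of all, and TATAAA, also searched on both strands, was in 25% and 13.6%. These matches describe the letters of the windows and no binding was measured.

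The gene counts of a sample summed to between 26155500 and 31308813 read pairs. Levels are given in CPM, a gene's count relative to the TMM-scaled total of its library, and the floor of 3 counts corresponds to 0.0955 to 0.111 CPM, for counting error only. The library labels were checked with Dlx2, at a mean of 124 ± 5.96 CPM in Dlx2OE against 41.0 ± 5.32 CPM in WT (SD over 3 samples), with a log2 fold change of 1.60 (SE 0.118, edgeR adjusted p = 0.00241). Read pairs outside annotated genes made up 5.03% to 5.43% of the assigned and unassigned pairs in WT and 5.75%, 7.81% and 14.7% in Dlx2OE samples 1 to 3.

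The members held a small part of the counts of each sample, and their summed level varied widely within each genotype. The summed level of the 36 members was 344, 729 and 389 CPM in WT samples 1 to 3. In Dlx2OE samples 1 to 3 it was 168, 295 and 447 CPM. The WT sample 2 was far above every other sample, Dlx2OE sample 1 was far below, and the genotypes overlapped, since Dlx2OE sample 3 exceeded WT samples 1 and 3. The share of all counts on these genes ran from 0.0169% in Dlx2OE sample 1 (exact 95% binomial interval 0.0164% to 0.0174%) to 0.0704% in WT sample 2 (0.0695% to 0.0713%). Intervals cover counting error only.

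The mean sum was 303 ± 140 CPM in Dlx2OE against 487 ± 210 CPM in WT (SD over 3 samples), a ratio of Dlx2OE to WT of 0.622. Within WT the highest sample held 2.12 times the lowest, within Dlx2OE 2.66 times, and over all samples 4.34 times. Leaving Actc1 out gave a ratio of 0.635, and leaving out 12 members set aside as genes of heart or smooth muscle gave 0.652. These 12 are not a full list of the members that other muscle types share, so 0.652 is not a value for skeletal muscle alone. In bulk samples, fewer muscle cells and less muscle RNA per cell cannot be told apart.

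**Figure D1:**
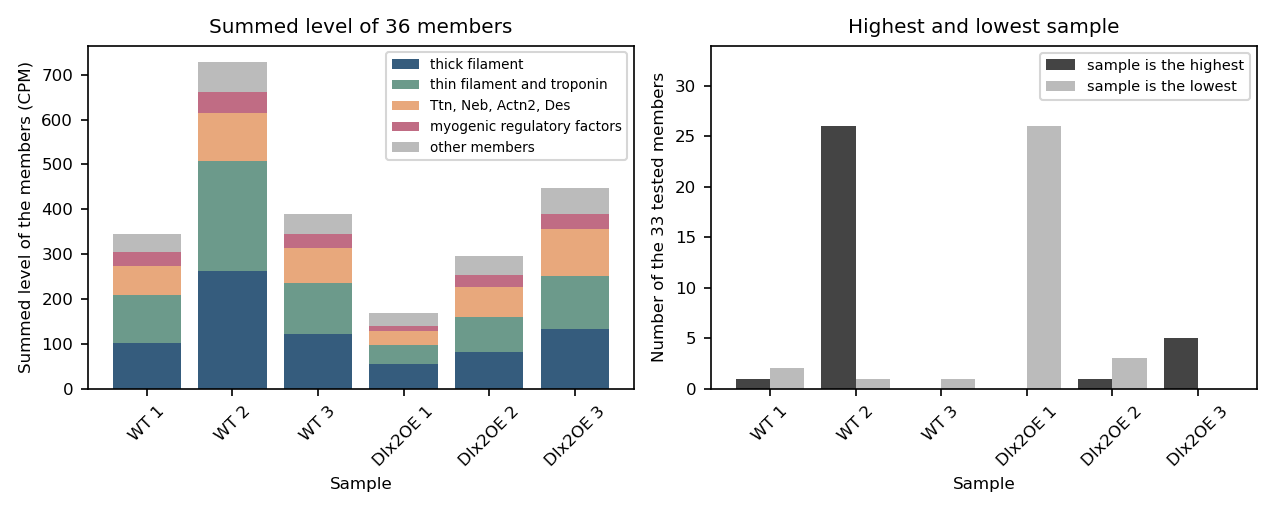
Left, the summed level of the 36 skeletal muscle genes in CPM (vertical axis) in each of the 6 samples, with bars stacked by role. Right, the number of the 33 tested genes for which a sample was the highest (dark bars) or the lowest (light bars) of the 6. WT 2 reached 729 CPM and was the highest for 26 genes, and Dlx2OE 1 had 168 CPM and was the lowest for 26.

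The members moved together across the samples. WT sample 2 was the highest of all 6 samples for 26 of the 33 tested genes and the highest WT sample for 31. Dlx2OE sample 1 was the lowest of all for 26 and the lowest Dlx2OE sample for 30. The within-genotype SD of log2 CPM had a median of 0.674 over the members, beside 0.214 over all tested genes, and 32 of the 33 members were above that median of all genes. Against its genotype's mean, WT sample 2 had a median deviation of 0.57 on the log2 scale over the members and 0.0048 over all tested genes. Dlx2OE sample 1 had -0.64 and 0.0051. TMM scaling centres each library on the bulk of its genes. The medians over all tested genes are therefore near 0 through the scaling and cannot show whether a library shifted as a whole.

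Some ratios between related members varied less across the samples than the summed level. Embryonic myosin heavy chain Myh3 gave 5.23 to 7.09 counts per count of the perinatal form Myh8 in the 6 samples, while the level of Myh3 alone ranged over 4.27-fold. Myog gave 1.47 to 2.79 counts per count of Myod1, and Actc1 gave 4.09 to 6.82 per count of Acta1. Counts of the slow and cardiac form Myh7 per count of Myh3 ran from 0.0310 in Dlx2OE sample 2 to 0.0689 in WT sample 3. Ratios of the long genes to Mylpf varied as much or more, over 4.37-fold for Ttn and 6.54-fold for Neb. These ratios are not corrected for gene length and serve only to compare samples.

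**Figure D2:**
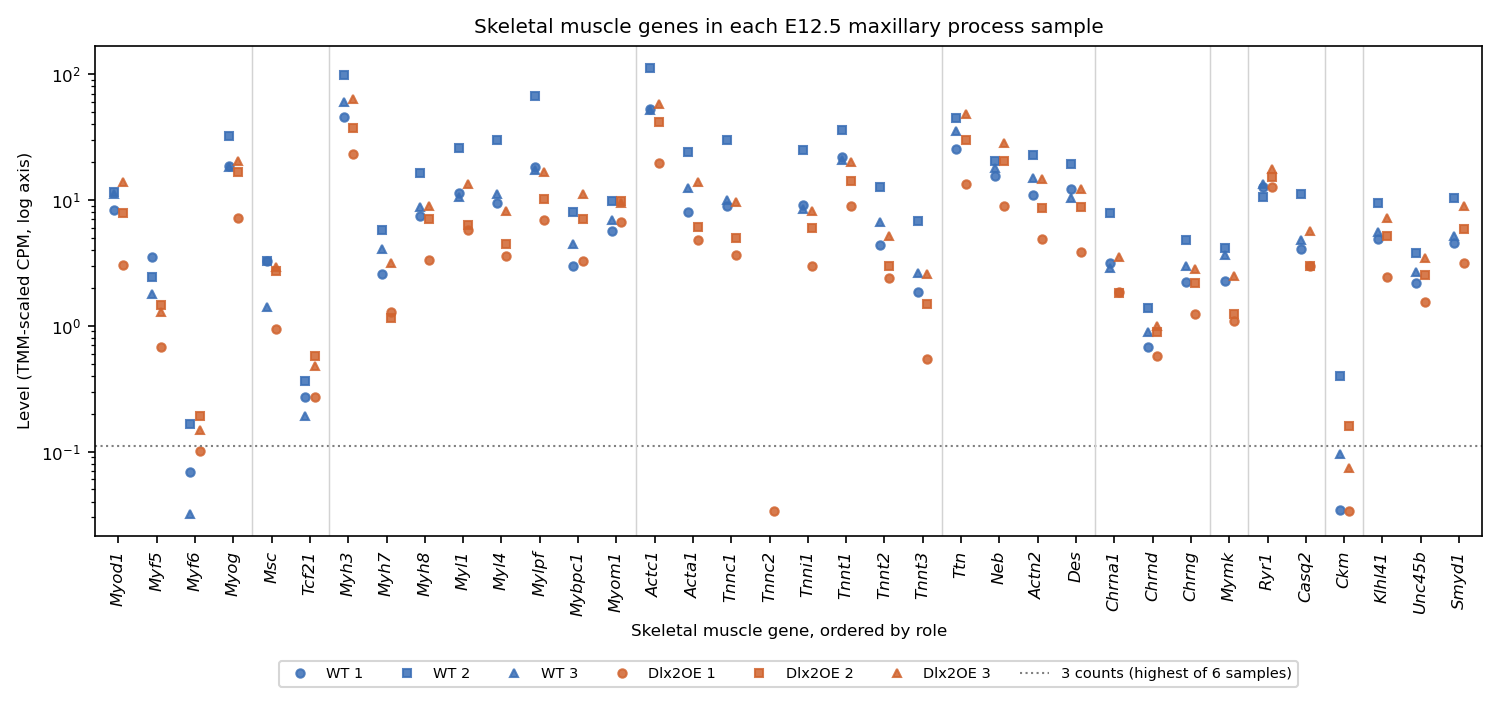
Level of each of the 36 skeletal muscle genes in TMM-scaled CPM (log vertical axis) in 3 WT samples (blue) and 3 Dlx2OE samples (orange), with the shape giving the replicate and grey lines dividing roles. The dotted line is 3 counts in the sample where that is the highest, 0.111 CPM, samples with 0 counts are not drawn, and the blue squares of WT 2 lie above the other samples for most genes.

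Per kilobase of annotated exon, the most abundant members in WT were mostly genes of the early sarcomere. Actc1, the cardiac actin that embryonic skeletal muscle also uses, had a mean of 44.6 CPM per kb, followed by the fast regulatory light chain Mylpf with 32.1. Tnnc1, the transcription factor Myog, Tnnt1 and Myh3 followed with 15.6, 15.3, 11.9 and 11.2 CPM per kb. WT sample 2 raised these means, most of all that of Mylpf, with 18.1, 67.0 and 17.3 CPM in WT samples 1 to 3. The 3 members without enough counts were at or near the floor: creatine kinase Ckm had 1 to 12 counts in the 6 samples, fast troponin C Tnnc2 had 1 count in Dlx2OE sample 1 and 0 in the other 5, and Myf6 had 1 to 6 counts. In the annotation, 74.0% of the exon sequence of Tnnc2 overlaps Ube2c, so its count is uncertain, since the strand setting of the counting is not given.

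No member passed the test between genotypes. With edgeR's quasi-likelihood test and Benjamini-Hochberg adjustment over 17514 genes, 0 of the 33 tested members had an adjusted p under 0.05 in either direction, whereas 6.45% of all tested genes did (3.46% lower and 2.99% higher in Dlx2OE). The share of all genes also past a log2 fold change of 1, the threshold of the study, was 1.62% lower and 1.5% higher, and again 0 members. At an unadjusted p under 0.05, 9 members were lower in Dlx2OE and 0 higher, beside 15.4% and 14.1% of all tested genes. DESeq2 called 2 members lower, Tnnt1 and Tnnt2, and 0 higher, beside 7.21% and 5.54% of the genes it tested. Without the filter on low counts, edgeR called 5 lower (Myl4, Mylpf, Tnnc1, Tnni1 and Tnnt1) and 0 higher, beside 3.51% and 2.58% of the 33556 genes in that fit. Many of those genes have too few counts for the main test, unlike most members, so these shares are not a like background.

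The estimates nevertheless lay mostly on the lower side. In Dlx2OE 28 members had a log2 fold change below 0 and 5 above, whereas 49.7% of all tested genes were below 0. The median was -0.76 over the members and 0.0028 over all tested genes, and 9 members were below -1, beside 4.72% of all genes. Since the members vary together, they are not independent readings of the genotypes, and the median depended on single samples: it was -0.34 without WT sample 2, -0.45 without Dlx2OE sample 1 and -1.17 without Dlx2OE sample 3. The genotypes did not overlap for 5 of the 33 tested members, all lower in Dlx2OE (Myf5, Myl4, Mylpf, Tnni1 and Tnnt1). This share was no larger than that of all tested genes, at 17.3% lower and 16.7% higher. With 3 samples a genotype, an exact permutation test of a single gene cannot give a p below 0.1.

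**Figure D3:**
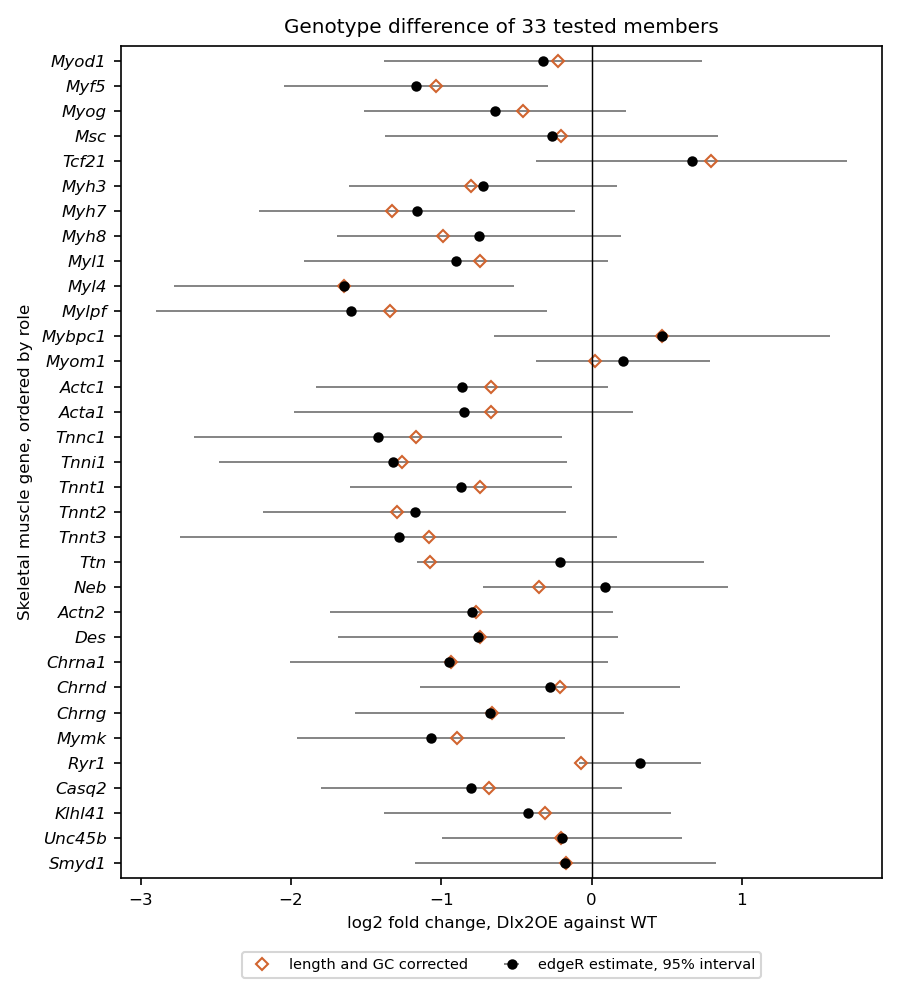
Log2 fold change of Dlx2OE against WT (horizontal axis) for the 33 tested skeletal muscle genes, ordered by role. Black points and grey bars are edgeR estimates with 95% intervals, orange diamonds are estimates corrected for length and GC content, and 28 of the black points lie left of 0.

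Among the myogenic regulatory factors, Myf5 was the member whose genotypes did not overlap. Of all tested genes, 17.3% were lower in Dlx2OE in the same way, so the pattern is common. This factor marks the entry of cells into the muscle lineage, and its gene (ENSMUSG00000000435) lies on chromosome 10 from 107482908 to 107486134 in GRCm38. Its level was 3.52, 2.42 and 1.80 CPM in the WT samples and 0.675, 1.46 and 1.29 CPM in the Dlx2OE samples. WT sample 1 was the highest here, in place of WT sample 2, and every Dlx2OE sample was below every WT sample. The log2 fold change was -1.17 (SE 0.381, edgeR adjusted p = 0.0948).

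Myod1, which acts beside Myf5, did not share that order. Its level was 8.34, 11.5 and 11.1 CPM in WT and 3.04, 7.93 and 13.8 CPM in Dlx2OE, so that the highest and the lowest sample were both Dlx2OE. The log2 fold change was -0.32 (SE 0.459, edgeR adjusted p = 0.660). Myog, which acts after them, had 18.6, 32.1 and 18.1 CPM in WT and 7.22, 16.8 and 20.2 CPM in Dlx2OE. Its genotypes overlapped, with a log2 fold change of -0.64 (SE 0.378, edgeR adjusted p = 0.289). Myf6 was not tested, with counts of 2, 5 and 1 (WT) and of 3, 6 and 4 (Dlx2OE).

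The progenitor factors of head muscle gave no common direction. Msc, also known as MyoR, had 3.25, 3.29 and 1.41 CPM in WT and 0.945, 2.71 and 2.95 CPM in Dlx2OE (log2 fold change -0.27, SE 0.481), and 21.2% of its exon sequence overlaps Gm9947. Tcf21, or capsulin, was close to the floor at 0.273, 0.365 and 0.192 CPM in WT and 0.270, 0.573 and 0.480 CPM in Dlx2OE (log2 fold change 0.67, SE 0.449). Its 6 to 18 counts per sample set wide limits, with a 95% interval of the log2 fold change from -0.37 to 1.70.

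The thick filament held the members with the largest differences. Myl4, an embryonic and atrial essential light chain (ENSMUSG00000061086, chromosome 11, 104550663 to 104595753), had 9.46, 30.1 and 11 CPM in WT. In Dlx2OE it had 3.61, 4.49 and 8.09 CPM, all below the lowest WT sample. The log2 fold change was -1.64 (SE 0.491, edgeR adjusted p = 0.0789), and this was the smallest adjusted p of any member.

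Mylpf, the regulatory light chain of fast muscle (ENSMUSG00000030672, chromosome 7, 127208890 to 127214298), had 18.1, 67.0 and 17.3 CPM in WT and 6.89, 10.2 and 16.8 CPM in Dlx2OE. The genotypes did not overlap, although Dlx2OE sample 3 came close to WT sample 3. The log2 fold change was -1.60 (SE 0.564, edgeR adjusted p = 0.112), and it was between -2.0 and -0.66 when each sample was left out in turn.

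For the myosin heavy chains WT sample 2 was again the highest, and the genotypes overlapped. Myh3 had 45.2, 98.7 and 59.6 CPM in WT and 23.1, 36.9 and 63.4 CPM in Dlx2OE (log2 fold change -0.72, SE 0.388). Myh7 had 2.60, 5.74 and 4.11 CPM in WT and 1.28, 1.15 and 3.14 CPM in Dlx2OE (log2 fold change -1.16, SE 0.456, edgeR adjusted p = 0.139), and 13.3% of its exon sequence overlaps other genes, the antisense Mhrt among them. Myl1, an alkali light chain, had 11.2, 25.9 and 10.5 CPM in WT and 5.81, 6.31 and 13.4 CPM in Dlx2OE (log2 fold change -0.90, SE 0.439), and the log2 fold change of Myh8 was -0.75.

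A pair of thick filament members lay on the other side of 0. Mybpc1, the slow myosin-binding protein C, had 3.01, 8.0 and 4.43 CPM in WT and 3.27, 7.01 and 11.1 CPM in Dlx2OE (log2 fold change 0.47, SE 0.484). Myom1, which ties thick filaments together at the M band, had 5.71, 9.72 and 6.90 CPM in WT and 6.72, 9.71 and 9.38 CPM in Dlx2OE (log2 fold change 0.21, SE 0.251). Neither difference exceeded its error.

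All 7 tested genes of the thin filament and troponin were lower in Dlx2OE by their estimates, and 0 passed the test. Tnnc1, the troponin C of slow and cardiac muscle, had 9.02, 29.8 and 10 CPM in WT and 3.65, 4.97 and 9.64 CPM in Dlx2OE. Its log2 fold change was -1.42 (SE 0.530, edgeR adjusted p = 0.127). Tnni1, the slow inhibitory subunit, had 9.09, 25.1 and 8.40 CPM in WT and 2.97, 5.95 and 8.16 CPM in Dlx2OE, a log2 fold change of -1.32 (SE 0.503). In both genes WT sample 2 stood far above every other sample, and Dlx2OE sample 3 was close to WT samples 1 and 3.

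Among the subunits that anchor troponin to tropomyosin, Tnnt1, the slow form, had 21.9, 36 and 20.8 CPM in WT and 8.91, 14 and 20.2 CPM in Dlx2OE, with no overlap. Its log2 fold change was -0.87 (SE 0.320), with an adjusted p of 0.124 in edgeR and 0.0210 in DESeq2. Tnnt2, the cardiac form found in embryonic skeletal muscle, had 4.41, 12.7 and 6.64 CPM in WT and 2.40, 2.96 and 5.17 CPM in Dlx2OE. The log2 fold change was -1.18 (SE 0.437), with an adjusted p of 0.126 in edgeR and 0.0233 in DESeq2.

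Tnnt3, the fast form, had 1.84, 6.74 and 2.63 CPM in WT and 0.540, 1.5 and 2.58 CPM in Dlx2OE (log2 fold change -1.28, SE 0.631), and its 12.5-fold range over the samples was the widest of the tested members. Actc1 had 52.8, 112 and 51.7 CPM in WT and 19.7, 41.3 and 58.3 CPM in Dlx2OE (log2 fold change -0.86, SE 0.421, edgeR adjusted p = 0.212). Acta1, the actin of adult skeletal muscle, had a log2 fold change of -0.85.

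The giant sarcomere genes had estimates nearer to 0, with intervals that cover those of many smaller genes. Ttn, which encodes titin, had 25.3, 45.1 and 35.3 CPM in WT and 13.3, 30.0 and 48.5 CPM in Dlx2OE, with the highest level in Dlx2OE sample 3 (log2 fold change -0.21, SE 0.414). Neb, which encodes nebulin, had 15.5, 20.3 and 17.8 CPM in WT and 9.01, 20.2 and 28.1 CPM in Dlx2OE (log2 fold change 0.09, SE 0.354). Actn2 of the Z disc and the intermediate filament gene Des had log2 fold changes of -0.80 and -0.76 (edgeR adjusted p = 0.231 and 0.246).

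At the membrane, the acetylcholine receptor subunits Chrna1, Chrng and Chrnd had log2 fold changes of -0.95, -0.68 and -0.27. Chrna1 had 3.14, 7.90 and 2.89 CPM in WT and 1.86, 1.82 and 3.54 CPM in Dlx2OE, so Dlx2OE sample 3 exceeded 2 of the WT samples. Mymk, which encodes the fusion protein myomaker, had 2.25, 4.11 and 3.66 CPM in WT and 1.08, 1.24 and 2.47 CPM in Dlx2OE. Its log2 fold change was -1.07 (SE 0.387, edgeR adjusted p = 0.12), and only Dlx2OE sample 3 and WT sample 1 overlapped.

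The calcium genes had estimates of opposite sign. Casq2, a calcium store protein of the sarcoplasmic reticulum, had a log2 fold change of -0.80 (SE 0.436), whereas Ryr1, the channel that releases that calcium (ENSMUSG00000030592, chromosome 7, 29003344 to 29125179), had 0.33 (SE 0.176, edgeR adjusted p = 0.251). Ryr1 had 12.6, 10.5 and 13.4 CPM in WT and 12.7, 15.3 and 17.7 CPM in Dlx2OE. It had its lowest level in WT sample 2, the sample that was the highest for 26 of the 33 tested members. Its whole range of 1.68-fold was the narrowest of the tested members. The assembly genes Klhl41, Unc45b and Smyd1, which handle myosin and nebulin, had log2 fold changes of -0.43, -0.20 and -0.17 with adjusted p-values of 0.516 or more in edgeR.

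The members near or above 0 were in part the long genes. Across the 33 tested members the log2 fold change correlated with annotated exon length (Spearman's rho 0.414, Pearson's r 0.412 with log10 length), which describes genes in these libraries and not independent replicates. The same relation ran through the whole table, with rho 0.284 over 17496 genes and a median log2 fold change of -0.24 in the shortest quartile of genes and 0.17 in the longest. After a loess correction for length and GC content, which removes a trend with length by design, rho over the members was 0.083. With it 30 members were below 0 and the median was -0.74. The estimates of the giant genes moved most: Ttn went from -0.21 to -1.07, Neb from 0.09 to -0.35 and Ryr1 from 0.33 to -0.07, and 0 members passed the test. Ttn, Neb and Ryr1 have 116825, 26582 and 21838 bp of annotated exon. The longest of 20 length bins of all tested genes had a median of 14696 bp and a median log2 fold change of 0.28. The corrected values of these giant genes thus rest on the end of the fit and are uncertain, that of Ttn above all. The part of transcript length in these estimates was not otherwise tested.

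**Figure D4:**
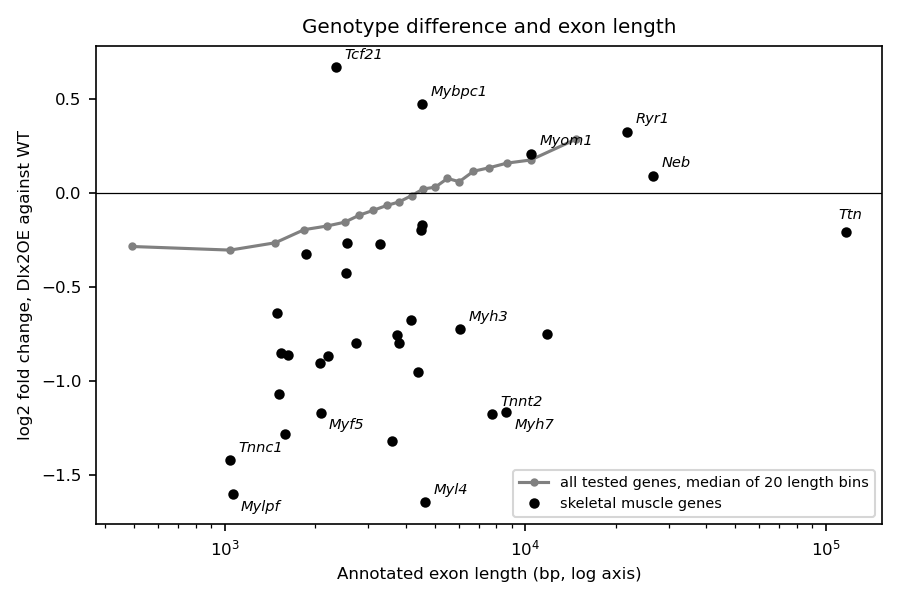
Log2 fold change of Dlx2OE against WT (vertical axis) against annotated exon length in bp (log horizontal axis). Black points are the 33 tested skeletal muscle genes, the grey line joins medians of all tested genes in 20 length bins and climbs with length, and most of the black points lie below it.

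Counts of the long genes were also set against Mylpf within each sample. Neb gave 0.857, 0.303 and 1.03 counts per Mylpf count in WT and 1.31, 1.98 and 1.67 in Dlx2OE, with no overlap. Ttn gave 1.40, 0.673 and 2.04 in WT and 1.93, 2.94 and 2.89 in Dlx2OE, with overlap. Mylpf itself had a log2 fold change of -1.60 and genotypes that did not overlap. A higher ratio in Dlx2OE for genes near 0 thus follows largely from the choice of Mylpf. These ratios were chosen after values were seen and carry no test.

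Other muscle genes were also mostly lower by estimate. Of 75 further genes of contractile, synaptic, calcium, metabolic and transcriptional function, 60 were tested. In Dlx2OE 48 were lower and 12 higher by their estimates, with a median log2 fold change of -0.46. Over all tested genes 49.7% were lower, with a median of 0.0028. The further genes were read in the same samples as the members and are not independent of them. Of the 60, 1 fell past the threshold, beside 3.46% of all tested genes. It was Tpm1, a tropomyosin also made outside muscle, which went from 563 ± 3.20 to 384 ± 36.6 CPM (SD, n = 3 each, log2 fold change -0.55, edgeR adjusted p = 0.0360). The contractile list (25 tested) had a median of -0.75, and Pdlim3 and Myoz1 of the Z disc had log2 fold changes of -1.19 and -1.56 without passing. The list for synapse, fusion and calcium handling (22 tested) had a median of -0.37, with Jph1 at -0.84 and Chrnb1 at -0.81, and that for transcription and metabolism (13 tested) had -0.20, with Rbm20 at 0.78 and Fitm1 at -1.39.

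Among 15 factors that act upstream in head muscle, 14 were tested and 3 passed. Of these 3, 2 were lower and 1 higher in Dlx2OE, beside 3.46% and 2.99% of all tested genes. Tbx1, a regulator of head mesoderm that is also expressed in epithelium, fell from 23.8 ± 5.46 to 11.8 ± 2.68 CPM (SD, n = 3 each, log2 fold change -1.01, edgeR adjusted p = 0.0416). Eya4, a transcription cofactor, fell from 118 ± 18.7 to 72.3 ± 14 CPM (log2 fold change -0.70, edgeR adjusted p = 0.0490), and Cdon, a surface receptor, rose from 71.0 ± 8.75 to 130 ± 10 CPM (log2 fold change 0.87, edgeR adjusted p = 0.0116). Many of these factors are also expressed in neural crest mesenchyme or epithelium, and their cells cannot be told apart here. Of 7 genes of tendon and muscle connective tissue, 2 fell, beside 3.46% of all tested genes. They were the tendon factor Scx, from 42.5 ± 4.46 to 15.8 ± 2.58 CPM (log2 fold change -1.42, edgeR adjusted p = 0.00610), and Mkx, from 24.7 ± 0.598 to 12.7 ± 2.03 CPM (log2 fold change -0.95, edgeR adjusted p = 0.0160). By estimate 4 of the 7 were lower and 3 higher, with a median of -0.052, and Tnmd, a gene of mature tendon, had 1.71 with an adjusted p of 0.105 in edgeR and 0.0121 in DESeq2. Leaving out WT sample 1 or 2 left 0 upstream factors past the test, and leaving out Dlx2OE sample 2 or 3 left 1. Without WT sample 3 there were 3, and without Dlx2OE sample 1 there were 6.

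Markers of other muscle types were set beside the members because several members are shared with them. The smooth muscle list (7 of 8 tested) was lower by estimate in all 7 with 0 passing, led by Myh11 at -1.27 and Acta2 at -0.94, and its summed level was 83.9, 119 and 87.8 CPM in WT and 50.3, 58.9 and 74.9 CPM in Dlx2OE. The heart list was close to absent: Nppa, Nkx2-5, Gata4, Hand1, Nppb and Myl7 were under the count filter, and its summed level was 1.69 to 3.29 CPM over the 6 samples. The tested heart genes Tnni3 and Myh6 had log2 fold changes of -0.41 and -0.15.

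Markers of other tissues also differed between the dissections. Genes said here to fall or rise passed the test, as did 3.46% (lower) and 2.99% (higher) of all tested genes. The summed level of 6 neuronal genes was 43.4, 271 and 145 CPM in WT and 168, 396 and 801 CPM in Dlx2OE, with all 6 higher by estimate and 0 passing (Stmn2 2.08, Tubb3 1.65). It was highest among the WT samples in WT sample 2 and lowest among the Dlx2OE samples in Dlx2OE sample 1, as was that of the members. All 6 macrophage genes were lower by estimate and C1qa and C1qb fell (-1.11 and -0.90). Of 6 red blood cell genes 5 were lower and 1 higher by estimate, and Alas2 and Hba-a1 fell (-0.86 and -0.85). All 6 endothelial genes were lower by estimate, Emcn fell (-0.97) and Tek had -0.77 without passing. Of 7 surface epithelial genes 4 were lower and 3 higher by estimate: Krt8 and Krt18 fell (-2.11 and -1.85), whereas Krt5 had 1.91 with an edgeR adjusted p of 0.0792. The summed epithelial level was 537, 1059 and 757 CPM in WT and 1525, 429 and 466 CPM in Dlx2OE. It was thus highest in Dlx2OE sample 1, where the summed level of the members was lowest. Of 8 facial mesenchyme genes 2 were lower and 6 higher by estimate, and Alx4 and Twist1 rose (1.39 and 0.65). Without WT sample 1, WT sample 2, Dlx2OE sample 2 or Dlx2OE sample 3, the 15 genes that passed over all of these other lists became 3, 2, 3 and 5. Without WT sample 3 there were 15, and without Dlx2OE sample 1 there were 25. The part of these differences in the muscle values was not tested.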

How the data were processed

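RNA of 3 WT and 3 Dlx2OE maxillary prominences at E12.5 was sequenced as 150 bp read pairs from a poly(A) library. Per the labels and the submitters' processing notes, the authors cleaned the reads, mapped them to mm10 with STAR 2.7.3a, counted them per gene with HTSeq 0.12.4 and deposited raw counts without normalization. FastQC is also listed. The strand setting and the annotation release of the counting are not given in the sources used here. The 5 summary lines of each file served only to describe the libraries. Symbols, positions and lengths were taken from the GENCODE M21 annotation (GRCm38), where 53706 of the 53801 identifiers were found.

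Genes were kept by filterByExpr with a minimum count of 10, scaled by TMM and tested with the quasi-likelihood F test of edgeR 4.0.16 in R 4.3.3 with genotype as the only term, and p-values of the 17514 genes were adjusted by Benjamini-Hochberg. Log2 values used a prior count of 2. A gene passed at an adjusted p under 0.05. The alternatives were DESeq2 1.42.0, RLE factors, library size alone, TMM without muscle, haemoglobin and mitochondrial genes, other filters on low counts, a replicate block, a loess correction for length and GC content (span 0.5), and the removal of each sample. Scripts were tested on simulated data. Figures were drawn with matplotlib 3.10.9.

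The members and the other lists were chosen with earlier results of these data known. All 36 members are named. Values in every sample were given for the members of smallest p, for the regulatory and progenitor factors, and, chosen after their values were seen, for Myh3, Mybpc1, Myom1, Ttn, Neb and Ryr1. In other lists the tested genes of smallest p were named. The promoters shown were chosen for the expression of their genes. Reads were not analysed here.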

Additional observations from a re-analysis of the deposited data

Results flagged for a closer look

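Read pairs that fell outside annotated genes, which no comparison of the report uses, were more frequent in the Dlx2OE samples than in any WT sample. They made up 5.75% in Dlx2OE sample 1, 7.81% in sample 2 and 14.7% in sample 3, against 5.03% to 5.43% in WT. Sample 3 also had the highest Ttn, Neb, Mybpc1, Myod1 and Ryr1 levels. The part of this share in the muscle values was not tested.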

How the results depend on the processing

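With 3 samples a genotype and summed levels of the members that ranged over 4.34-fold, small differences between genotypes were not detectable. Large ones could also be missed. By estimate Myl4 was 3.13-fold and Mylpf 3.03-fold lower in Dlx2OE without passing (edgeR adjusted p = 0.0789 and 0.112). The 0 members that passed therefore do not exclude differences of this size. The 33 members under 15 alternatives gave 494 values, of which 471 kept direction and side of the threshold, 7 passed it and 16 changed sign without passing, and 25 members kept their sign throughout. Neb turned to -0.35 and Ryr1 to -0.070 under the length and GC correction. DESeq2 passed 2428 genes (887 past 2-fold, against 1130 and 546 in edgeR) and 2 members (1 past 2-fold). It passed 33 of 133 genes of the other lists (against 15 of 129) and 9 of 64 other muscle genes (against 1 of 60). It also passed 7 of 14 upstream factors (against 3 of 14) and 17 of 55 cell type markers (against 11 of 55). Of all genes tested, DESeq2 called 7.21% lower and 5.54% higher, and edgeR 3.46% and 2.99%. Without a filter on low counts 2044 genes (1003 past 2-fold) and 5 members (4 past 2-fold) passed. So did 31 of 152 genes of the other lists, 6 of 75 other muscle genes and 6 of 15 upstream factors. Of the cell type markers 19 of 62 passed, beside 3.51% (lower) and 2.58% (higher) of all genes in that fit. A minimum of 10 counts in every sample gave 2 other muscle genes and 6 upstream factors, library size alone gave 1 upstream factor, and the length and GC correction gave 2 other muscle genes. The cause of these changes was not tested.

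Leaving out each sample in turn gave 79 to 2091 genes, 74 to 1173 past 2-fold, 0 members throughout, 2 to 25 genes of the other lists, 0 to 3 other muscle genes, 0 to 6 upstream factors and 2 to 16 cell type markers. The median of the members ran from -1.17 to -0.34, and the ratio of summed levels from 0.475 to 0.827. Estimates that changed sign ran from -0.29 to 0.42 for Neb, -0.70 to 0.14 for Ttn, -0.49 to 0.043 for Chrnd, -0.49 to 0.044 for Unc45b, -0.58 to 0.28 for Smyd1, -0.91 to 0.061 for Myod1 and -0.58 to 0.088 for Msc.

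Same-numbered samples showed no shared deviation: their deviations correlated at -0.072, -0.211 and 0.073, and those of other pairs of WT and Dlx2OE samples at -0.204 to 0.345. These values cannot decide whether same-numbered samples were collected or prepared together. With the replicate block 961 genes and 0 members passed, the median of the members was -0.78 and Neb had -0.039. The block together with the length and GC correction gave 654 genes, 315 past 2-fold, 2 other muscle genes and 7 cell type markers, with Neb at -0.44 and Ryr1 at -0.065.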
